A study of Mus musculus with 12 samples.

Results

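Genes were sought at which mouse embryonic fibroblasts (MEFs) heterozygous for loss of Sirt1 stood outside both wild-type and homozygous mutant fibroblasts. All 12 of 12 arrays of the series entered the comparison: 4 of cells labelled WT MEFs, 4 labelled SIRT1 Heterozygous MEFs (Het) and 4 labelled SIRT1 Homozygous MEFs (KO). The samples were grouped by genotype label, with no measured value used, and the quantity followed for every gene is the Het difference, the mean of the Het arrays minus the average of the WT and KO group means. All cells were labelled female and were grown in DMEM that held 4 mM glutamine, 25 mM glucose and FBS at 10%, and were collected while in log growth, and 500 ng of RNA went to each array. No treatment separated the groups, and the allele that removes Sirt1 is not described in the sources used here. WT arrays carry the numbers 1, 2, 3 and 5, whereas Het and KO arrays carry 2, 3, 4 and 5, and values are listed in that order. Nothing in the labels says that the arrays came from separate embryos or cultures, so a p-value here measures only how far these samples differ among themselves, possibly for technical reasons.

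SIRT1 is an NAD-dependent deacetylase that removes acetyl groups from histones and from transcription factors such as p53, FOXO proteins and NF-kappaB, and so ties gene activity to the NAD supply of the cell. Embryonic fibroblasts are a mixed mesenchymal culture whose cells keep part of the positional and lineage programme of the tissue they came from, including limb and trunk transcription factors and Wnt, BMP and FGF signals. A simple effect of gene dose would place the heterozygote between the other genotypes. The Het difference asks where it departed from their midpoint, which can also pass where Het lies close to WT or to KO. Only the stricter rule described below asks for Het outside both genotypes.

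Each level is the log2 signal minus that of the array's own 75th percentile, so 0 is that percentile and 1 unit is a 2-fold difference. Of 27670 features (1 probe per gene name), 16844 were well above background on all arrays of at least 1 genotype and were tested. Probes well above background made up 59.7% to 64.8% of each array on 3 of the 4 slides and 76.9% to 77.8% on the 4 arrays of slide 4 (WT 5, Het 5, KO 4 and KO 5). The 3 arrays numbered 3 stood apart: they correlated with the other arrays of their genotype at 0.925 to 0.969, against 0.970 to 0.998 among the rest. KO 4 and KO 5 were the most alike, at 0.998. On WT 3 the sex-linked genes went against the female label, with Xist at -2.94 against 1.67 to 3.42 on the other 11 arrays and Ddx3y at 1.04 against -10.16 to -4.35. Ddx3y stood at -4.35 on Het 3 and -5.28 on KO 3, above the other Het and KO arrays, which lay at -8.10 to -7.04. Results are therefore given with all 12 arrays and without the 3 arrays numbered 3. In bulk RNA, fewer cells of a type and less RNA per cell cannot be told apart.

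The targeted gene came first. Sirt1 had 2 probes on chromosome 10 (mm7 coordinates of the array files). On the probe at chr10:62838289-62838348 the WT arrays read 0.38, 0.52, 0.06 and 0.47, the Het arrays 0.37, 0.33, 0.38 and 0.39, and the KO arrays -0.19, -0.26, -0.67 and -0.75. All KO arrays lay below all others here, while the 4 Het arrays sat inside the WT range. The Het difference was 0.42 (SE 0.14), which did not pass an exact two-sided permutation test of the 4 Het against the 8 other arrays (p = 0.137, where the smallest possible p is 0.00404). The probe at chr10:62855795-62855854 read 0.87, 1.08, 0.67 and 0.54 in WT, 0.50, 0.91, 0.75 and 1.32 in Het and 1.25, 1.07, 0.49 and 0.43 in KO. The 3 genotypes overlapped on it, and the Het difference was 0.07 (SE 0.20, exact permutation p = 0.735; -0.18 without scaling and -0.082 without Het 5). Neither probe therefore checks the Het label, and which part of the gene is deleted is not given in the sources used here.

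Of the other sirtuins, Sirt3, the main mitochondrial deacetylase, came nearest to the threshold: the WT arrays read 1.32, 1.29, 1.51 and 1.22, the Het arrays 2.09, 2.09, 1.94 and 1.86 and the KO arrays 1.32, 1.56, 1.69 and 1.58. All 4 Het arrays lay above all 8 others, with a Het difference of 0.56 (SE 0.11, limma adjusted p = 0.0591). Without the arrays numbered 3 it was 0.56 and passed, at an adjusted p of 0.0238. Sirt2, Sirt4, Sirt5, Sirt6 and Sirt7 had Het differences between -0.18 and 0.30 with adjusted p-values of 0.396 to 0.901.

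The Het difference passed at a Benjamini-Hochberg adjusted p under 0.05 in limma for 104 of 16844 features (0.617%), 52 higher in Het (0.309%) and 52 lower (0.309%). At all 104 the Het mean lay beyond both other means, as it did for 65% of all tested features, 38.7% above and 26.3% below. The difference was at least 2-fold in 87 of them, 40 higher and 47 lower. In 71 of the 104 the 4 Het arrays lay beyond all 8 others, 40 above and 31 below, beside 1.95% of all tested features, of which 228 lay above and 100 below. Without scaling 107 passed, 20 higher and 87 lower, a share of 18.69% higher against 50%. WT and KO differed from each other by under 0.5 log2 units at 46 of the 104 and by over 2 at 9. A stricter rule asked that Het differ from WT and from KO separately in the same direction, with the larger of both p-values adjusted. No feature passed that rule in limma with all 12 arrays (0%), although 648 had an unadjusted larger p under 0.05. Without the arrays numbered 3, 1443 features passed the Het difference (8.57%), 737 higher (4.38%) and 706 lower (4.19%), among them 103 of the 104. The stricter rule then passed 279 (1.66%), 126 higher (0.748%) and 153 lower (0.908%), and 55 of the 104 were among them. The arrays numbered 3 were left out because these same data showed them apart, so these counts are no independent check of the 104.

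**Figure D1:**
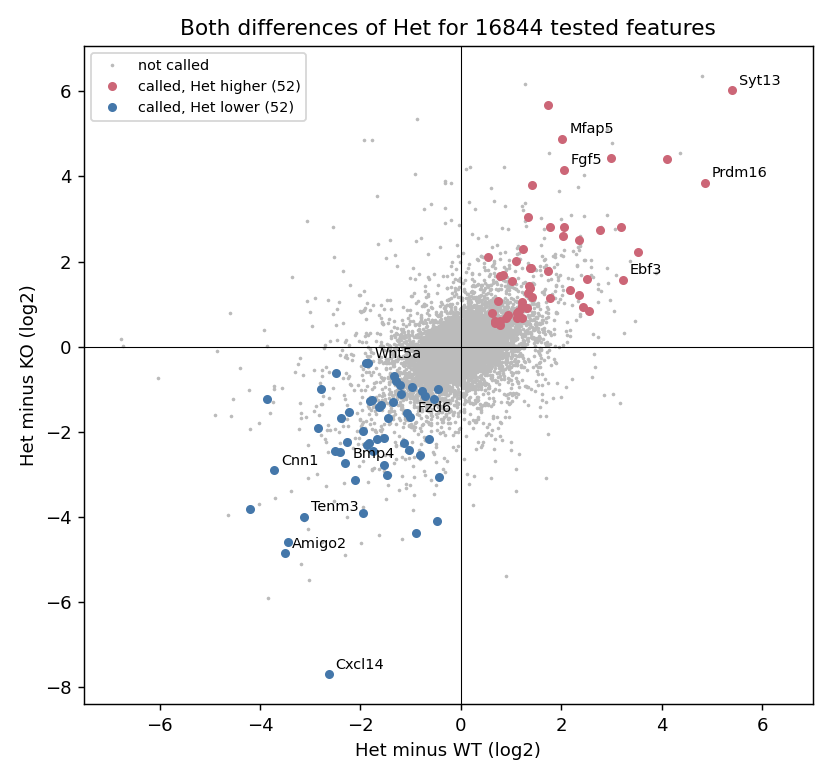
Het minus WT (x, log2) against Het minus KO (y, log2) for the 16844 tested features, with the 52 called higher in red and the 52 called lower in blue. The called features lie to the upper right and lower left, where both differences have the same sign, with Syt13 at 5.40 and 6.02 and Amigo2 at -3.51 and -4.85.

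The number of calls depended on single arrays. It fell to 2 without Het 2, 9 without Het 4, 12 without Het 5, 14 without KO 2, 12 without KO 4, 39 without KO 5, 44 without WT 5 and 60 without WT 2. It stood at 128 without WT 1, 226 without KO 3, 371 without Het 3 and 568 without WT 3. Atp8a1, a phospholipid flippase picked for this, and Tenm3 were the features called in all 12 of these fits. Leaving out the 4 arrays of slide 4 left 2 calls. With slide as a block there were 26, of which 20 were among the 104, and all 104 kept their sign. All 104 also kept their sign within slide 3 and within slide 4, the slides that hold every genotype. The arrays of both slides had entered the fit that gave the 104 calls, so this agreement in sign is no independent check.

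**Figure D2:**
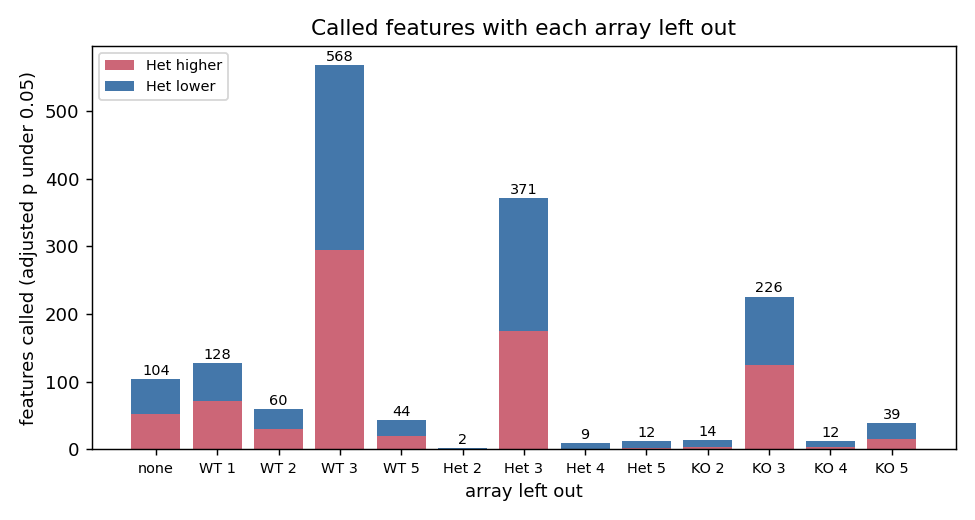
Number of features called for the Het difference with all 12 arrays and with each array left out (x), higher in Het in red and lower in blue. The count runs from 2 without Het 2 to 568 without WT 3.

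Transcription factors of the limb and trunk mesenchyme moved in both directions. Of 45 tested members of that list, 4 were called higher and 2 lower, beside 0.309% of all tested features in each direction. That share also stands beside the called counts of the lists below. This list and the others were chosen with earlier results of these data known, so such counts are no test of a list. Prdm16, a regulator known for brown fat and craniofacial development, was measured well above background on 3 WT, 4 Het and 4 KO arrays: the WT arrays read -5.23, -5.87, -2.37 and -6.79, the Het arrays -0.02, -0.60, -0.15 and -0.06 and the KO arrays -3.90, -4.95, -3.63 and -3.74. The 4 Het arrays lay close together and above all 8 others, WT 3 being the nearest. Its Het difference came to 4.35 (SE 0.64, limma adjusted p = 0.0208), 20.4-fold, and 4.78 without the arrays numbered 3. For Osr2, an odd-skipped factor of limb and palate mesenchyme, the WT arrays read -2.70, -1.82, -0.62 and -1.27, the Het arrays 2.49, 0.39, 1.87 and 1.57 and the KO arrays -1.13, -2.39, -0.84 and -0.53. Het was again above every other array, Het 3 least, and the Het difference was 2.99 (SE 0.48, limma adjusted p = 0.0223). For Ebf3, a helix-loop-helix factor of mesenchymal and neural cells, the WT arrays read 0.79, -1.10, 0.10 and -1.24, the Het arrays 3.41, 1.98, 3.11 and 2.91 and the KO arrays 0.67, 1.29, 1.62 and 1.53. The Het arrays again lay above all others, and the Het difference was 2.40 (SE 0.40, limma adjusted p = 0.0241).

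Shox2, a homeobox gene needed for the proximal limb skeleton and the sinus node, was called lower. For it the WT arrays read -1.30, -0.88, -1.32 and -0.83, the Het arrays -6.41, -3.24, -5.51 and -5.93 and the KO arrays -0.77, -3.46, -0.90 and -0.69. Het 2, Het 4 and Het 5 lay far below every WT array, but Het 3 and KO 3 were side by side at -3.24 and -3.46, so the groups overlapped. The Het difference was -4.00 (SE 0.62, limma adjusted p = 0.0208) with all arrays and -5.05 without number 3, and 3 of the 4 Het arrays were well above background. Irx5, an Iroquois homeobox gene, passed as well, with a Het difference of -1.14 (SE 0.20, limma adjusted p = 0.032), though Het at -3.13 to -2.21 overlapped KO at -2.73 to -1.86 and both lay below WT at -0.94 to -0.56. Pitx1, which specifies hindlimb and was picked after its values were seen, did not pass with all arrays. Here the WT arrays read 1.49, 1.53, 2.83 and 1.07, the Het arrays -4.64, 3.43, -4.05 and -3.22 and the KO arrays 3.48, 4.01, 3.89 and 3.77. Het 3 alone of the Het arrays was high, and the Het difference moved from -4.88 (SE 1.20, limma adjusted p = 0.102) to -6.51 (adjusted p = 1.05e-05) without the arrays numbered 3. In the latter fit 7 of the 45 members were called higher and 16 lower, beside 4.38% and 4.19% of all tested features. The median Het difference over the 45 was -0.28, beside 0.05 over all tested features. Of 26 tested Hox genes none was called in limma with all arrays, 2 higher and 3 lower having an unadjusted p under 0.05, beside 7.25% and 5.67% of all tested features. When the arrays numbered 3 were left out, 2 of the 26 were called higher and 7 lower, beside 4.38% and 4.19%. The stricter rule then passed 1 in each direction.

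**Figure D3:**
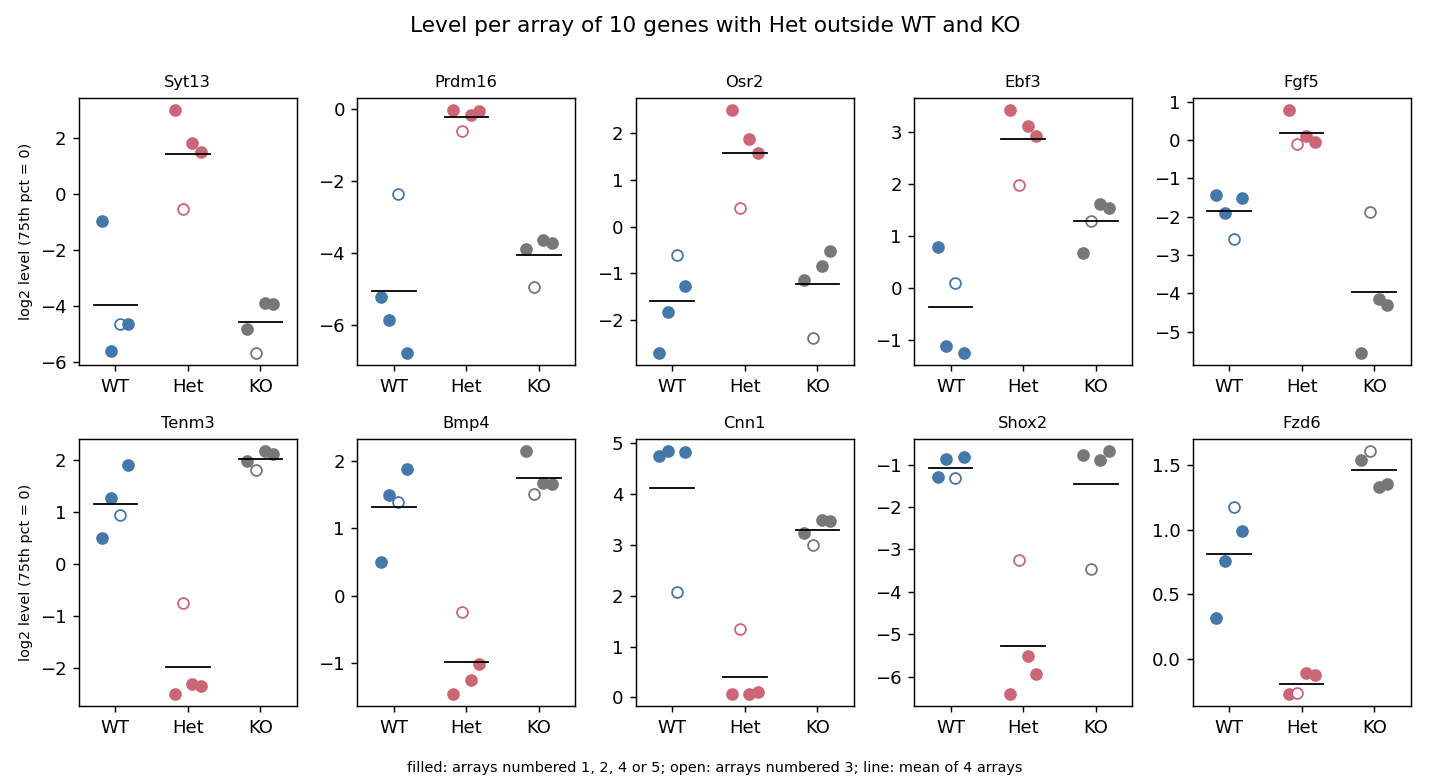
Log2 level (0 is the 75th percentile of the array) on each array for 10 genes, WT in blue, Het in red and KO in grey, with open circles for the arrays numbered 3 and a line at the mean of 4 arrays. The upper row holds genes higher in Het and the lower row genes lower in Het; at Cnn1 and Shox2 the open circles lie away from their groups, at 1.35 and -3.24 in Het.

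Several secreted ligands were called. Bmp4, the bone morphogenetic ligand, was lower in Het than anywhere else: the WT arrays read 0.49, 1.50, 1.39 and 1.88, the Het arrays -1.46, -0.24, -1.25 and -1.01 and the KO arrays 2.14, 1.51, 1.68 and 1.66. No Het array reached the lowest array of WT or KO. This gave a Het difference of -2.52 (SE 0.28, limma adjusted p = 0.00633), 5.74-fold, and Bmp4 was called in 11 of the 12 fits that leave out an array. Fgf5, a fibroblast growth factor known for ending the hair growth phase, went the other way: the WT arrays read -1.44, -1.91, -2.58 and -1.51, the Het arrays 0.78, -0.09, 0.11 and -0.04 and the KO arrays -5.55, -1.87, -4.16 and -4.30. All Het arrays lay above all WT arrays, and KO 2, KO 4 and KO 5 lay lowest, while KO 3 was at the WT level. Its Het difference was 3.10 (SE 0.53, limma adjusted p = 0.0273). Fgf5 and Bmp4 were the 2 of 30 tested BMP and FGF ligands and antagonists that were called, beside 0.309% of all tested features in each direction. The median over the 30 was -0.16, which became 0.04 with slide as a block. When the arrays numbered 3 were left out, 3 of the 30 were called higher and 7 lower, beside 4.38% and 4.19% of all tested features.

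In the Wnt pathway, where secreted ligands bind Frizzled receptors and LRP co-receptors, 3 of 36 tested members were called, each lower in Het, beside 0.309% of all tested features, and none was called higher. For Fzd6, a Frizzled receptor, the WT arrays read 0.32, 0.75, 1.18 and 0.99, the Het arrays -0.28, -0.27, -0.11 and -0.13 and the KO arrays 1.54, 1.61, 1.34 and 1.36. The Het arrays fell close together below every WT array, and KO was highest. The Het difference was -1.33 (SE 0.16, limma adjusted p = 0.00633). Lrp6, the co-receptor, lay at -3.50 to -3.31 in Het, -3.01 to -2.87 in WT and -2.82 to -2.08 in KO, a Het difference of -0.73 (SE 0.14, limma adjusted p = 0.0414); its second probe gave -0.25 and did not pass. Wnt5a, a ligand of limb outgrowth, differed in kind: the WT arrays read -1.45, -1.60, -1.57 and -1.36, the Het arrays -3.43, -3.75, -3.24 and -3.00 and the KO arrays -3.02, -2.95, -3.04 and -2.85. Het and KO were both far below WT and overlapped each other, so the Het difference of -1.12 (SE 0.14, limma adjusted p = 0.00954) came almost wholly from Het minus WT at -1.86, with Het minus KO at -0.39. Without the arrays numbered 3, 4 of the 36 were called higher and 13 lower, beside 4.38% and 4.19% of all tested features. Apcdd1, a membrane inhibitor of Wnt signalling outside that list and picked here after its values were seen, was also lower, with a Het difference of -0.94 (SE 0.15, limma adjusted p = 0.0208).

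Ligands of other pathways were called as well. For Jag1, a Notch ligand, the WT arrays read 0.11, -0.40, -0.88 and -1.04, the Het arrays -2.57, -0.84, -2.99 and -2.83 and the KO arrays 0.36, -0.64, 0.44 and 0.39. Het 2, Het 4 and Het 5 lay below every other array, whereas Het 3 fell among the WT arrays, and the Het difference was -2.10 (SE 0.40, limma adjusted p = 0.0429). Dll1, a second Notch ligand, picked after its values were seen, was higher, with a Het difference of 2.04 (SE 0.37, limma adjusted p = 0.0366), with Het 3 apart at -4.55 and the other Het arrays at -3.02 to -2.09. Edn1, the vasoconstrictor endothelin, was at -4.71 to -3.52 in Het, -3.27 to -1.58 in KO and -1.94 to -0.74 in WT, a Het difference of -2.38 (SE 0.36, limma adjusted p = 0.0208). Cxcl14, a chemokine of epithelial and stromal cells, spread most widely: the WT arrays read -4.43, -1.76, -1.51 and -1.61, the Het arrays -6.73, -2.04, -5.90 and -5.19 and the KO arrays 2.84, 2.46, 2.95 and 2.66. KO was high on all 4 arrays, and Het and WT overlapped because Het 3 was at the WT level and WT 1 was low. Its Het difference of -5.16 (SE 0.79, limma adjusted p = 0.0208) combined -2.64 against WT with -7.69 against KO, and 2 of the 4 Het arrays were well above background.

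Tenm3, a teneurin that guides cell contacts in the nervous system and mesenchyme, was called lower in Het. For this gene the WT arrays read 0.50, 1.26, 0.95 and 1.90, the Het arrays -2.51, -0.75, -2.30 and -2.35 and the KO arrays 1.99, 1.81, 2.16 and 2.11. Even Het 3, the highest Het array, lay below WT 1, the lowest of the others. Its Het difference came to -3.56 (SE 0.33, limma adjusted p = 0.00234), 11.8-fold, and was called whichever array was left out, at adjusted p-values up to 0.0229. A neighbouring chromosome 8 probe (mm7) listed on the array by the older name Odz3 gave -4.02 (SE 0.47, limma adjusted p = 0.00633). Amigo2, a leucine-rich adhesion protein, lay at -7.97, -4.16, -7.97 and -7.26 in Het against -4.01 to -2.43 in WT and -2.85 to -1.64 in KO, with 2 of 4 Het arrays well above background and a Het difference of -4.18 (SE 0.64, limma adjusted p = 0.0208). Among 23 tested integrins and cadherins, Itga8 was called lower and Itga6 higher, beside 0.309% of all tested features in each direction. Itga8, which pairs with beta-1 in smooth muscle and kidney, was at -3.20 to -2.54 in Het, below all other arrays (-1.73 to -0.07), a Het difference of -2.02 (SE 0.27, limma adjusted p = 0.015). Itga6, a laminin receptor subunit, was at 2.16 to 2.41 in Het and 0.38 to 1.62 elsewhere, a Het difference of 1.28 (SE 0.23, limma adjusted p = 0.0325); its other probes gave 0.34 and 1.07 and did not pass. Cd302, a C-type lectin receptor, and Sorcs2, a sortilin-family receptor, were lower in Het, with Het differences of -1.96 and -2.08, with the 4 Het arrays below all others in both.

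Cnn1, calponin of the contractile apparatus, was the called member of the myofibroblast and TGF-beta list. On this probe the WT arrays read 4.75, 4.84, 2.08 and 4.82, the Het arrays 0.07, 1.35, 0.07 and 0.12 and the KO arrays 3.23, 3.00, 3.49 and 3.47. WT 1, WT 2 and WT 5 lay together and high, KO lay together below them and Het lay lowest, with WT 3 and Het 3 closer to each other than to their groups. The Het difference was -3.31 (SE 0.49, limma adjusted p = 0.0208) and -4.02 without the arrays numbered 3, where Het differed from both genotypes by the stricter rule (adjusted p = 1.83e-05). No other member passed with all arrays. Of 34 tested members, 24 had the Het mean below both other means and 5 above both, beside 26.3% and 38.7% of all tested features, and 10 had an unadjusted p under 0.05 with Het lower against 0 with Het higher, beside 5.67% and 7.25% of all tested features. The median Het difference of the 34 was -0.32, beside 0.05 over all tested features, and ranged from -0.57 to -0.26 over the scaling and background settings. Ccn2, a TGF-beta and YAP target picked with the next pair after their values were seen, read 3.32 on average in Het, 5.87 in WT and 4.28 in KO (-1.75, adjusted p = 0.167). Tagln, transgelin, had -0.96 (SE 0.46, limma adjusted p = 0.413), and Acta2, smooth muscle actin, -0.43 (SE 0.32, limma adjusted p = 0.623). Both had their lowest WT value on WT 3. The summed level of the 7 smooth muscle and pericyte markers, to which Cnn1 and Acta2 belong, was 63.5 to 96.4 in Het, 68.0 to 250.1 in WT and 90.1 to 111.8 in KO on the linear scale, and its part in these results was not tested.

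Among the genes higher in Het, Syt13, a synaptotagmin of secretory vesicles, had the largest Het difference. Here the WT arrays read -0.96, -5.58, -4.64 and -4.62, the Het arrays 3.00, -0.53, 1.82 and 1.49 and the KO arrays -4.83, -5.67, -3.87 and -3.91. Every Het array lay above the rest, Het 3 only narrowly above WT 1. This gave a Het difference of 5.71 (SE 0.84, limma adjusted p = 0.0208), but its second probe gave 1.37, so the size depends on the probe. For Gfra1, a co-receptor of the neurotrophic factor GDNF, the WT arrays read -2.83, -4.82, -3.93 and -3.53, the Het arrays -1.15, -2.73, -1.43 and -1.59 and the KO arrays -4.74, -4.06, -4.79 and -4.54. Het 3 again lay nearest to the others, just above WT 1, and the Het difference was 2.43 (SE 0.37, limma adjusted p = 0.0208). Sh2d1b1, an SH2 adaptor best known from natural killer cells, lay at -2.37 to -0.80 in Het and -8.35 to -4.02 elsewhere, a Het difference of 4.25 (SE 0.69, limma adjusted p = 0.0231) with 3.85 on a second probe. Vav3, a guanine nucleotide exchange factor, and S100b, a calcium-binding protein of glia, had Het differences of 1.76 and 2.43, with the Het arrays above all others. Mfap5, a microfibril protein and the called member of 25 elastic fibre and proteoglycan genes, differed: the WT arrays read -0.89, -2.42, -2.07 and -1.96, the Het arrays 1.15, -2.12, 0.83 and 0.88 and the KO arrays -4.90, -3.48, -5.16 and -5.24. Het 3 was inside the WT range and KO was lowest, and the Het difference was 3.45 (SE 0.59, limma adjusted p = 0.0273), or 4.38 without the arrays numbered 3.

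Several enzymes followed. Tnfaip8l3, a phosphoinositide transfer protein, was well above background on 4 Het arrays and on none of the others. Its level is thus known only as a bound outside Het, and Het was at least 4.76-fold higher than WT and at least 7.45-fold higher than KO, taking the dimmest signal well above background on each array, or the probe's own value where higher, as the level of the dim group. It entered the test only through Het, so its adjusted p of 0.0227 is no support, and with normexp background the Het difference was 1.11 (adjusted p = 0.333) against 3.71. Cyp4f14, a fatty acid hydroxylase, and Pgap4, a Golgi enzyme of GPI anchors, had Het differences of 2.88 and 2.29. An unnamed feature listed as BU920841 had 2.32. In the lower set, Ctsc, cathepsin C, was the called member of 22 lysosomal genes: the WT arrays read -1.79, -2.51, -2.62 and -2.24, the Het arrays -5.78, -2.43, -4.44 and -4.33 and the KO arrays -0.10, -1.06, -0.09 and -0.12. Het 3 matched WT while the other Het arrays lay below it, and the Het difference was -2.93 (SE 0.48, limma adjusted p = 0.0235). Zbtb8b, a zinc finger gene, was at -7.25 to -6.25 in Het, below all others, with 1 of 4 Het arrays well above background and a Het difference of -2.48.

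All 28 highest-ranked genes, 14 in each direction, were called again without the arrays numbered 3, at adjusted p-values of 1.01e-06 to 0.0118. This is no independent check, since the remaining arrays had entered the fit that ranked the 28. The arrays numbered 3 were left out because these same data showed them apart. Leaving them out lowered the median SE over all tested features from 0.216 to 0.173. All 28 were also called without WT 3, without Het 3 and without KO 3, and fewer were called without any other single array: 1 without Het 2, 3 without Het 4, 3 without Het 5, 4 without KO 2, 4 without KO 4, 18 without KO 5, 19 without WT 5, 23 without WT 2 and 27 without WT 1. With normexp background the adjusted p was 0.056 at S100b, 0.0756 at Mfap5, 0.0522 at Jag1, 0.0544 at Irx5, 0.161 at Lrp6, 0.154 at Cyp4f14, 0.232 at BU920841 and 0.273 at Zbtb8b, and the Het differences of the last 3 were 1.52, 1.27 and -1.04. Without scaling it was 0.0721 at Cyp4f14, 0.0772 at Pgap4, 0.0842 at Vav3, 0.0791 at Lrp6, 0.0839 at Itga6, 0.0905 at Stc2 and 0.0692 at Ebf3. With the mean of all probes of a name it was 0.0689 at Jag1, 0.205 at Lrp6, 0.0751 at Itga6 and 0.172 at Ebf3. With slide as a block 9 of the 28 were called, and with slide 4 left out none was in limma.

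The interferon response, the antiviral genes that cells switch on after type I interferon, had the highest median Het difference of the 33 pathway lists, without 1 called member in limma. Of 44 tested genes, 27 had the Het mean above both other means and 3 below both, beside 38.7% and 26.3% of all tested features, and 5 had an unadjusted p under 0.05 with Het higher against 1 with Het lower, beside 7.25% and 5.67%. The median Het difference was 0.60 with all arrays, 1.09 without number 3 and 0.36 without scaling, beside 0.05, 0.03 and -0.19 over all tested features. With all arrays the list's median was 1.02 for Het minus WT, 0.10 for Het minus KO and 0.73 for KO minus WT. By these medians Het and KO both lay above WT, and Het differed little from KO. As the median level of the list on each array, the WT arrays were at 1.63, 0.38, 1.60 and 1.29, the Het arrays at 3.38, 0.83, 2.75 and 2.63 and the KO arrays at 2.15, 1.80, 2.23 and 2.21. Het 2, Het 4 and Het 5 stood above every other array, and Het 3 stood below all KO arrays and 3 of the 4 WT arrays. For Uba7, the activating enzyme for the ubiquitin-like ISG15, the WT arrays read 0.88, -0.21, 2.10 and 1.30, the Het arrays 3.20, 0.82, 2.52 and 2.33 and the KO arrays 0.59, 1.25, 0.67 and 0.68. Its Het difference was 1.31 (SE 0.46, limma adjusted p = 0.242) and 2.04 (adjusted p = 0.00555) without number 3. Bst2, tetherin, had 0.78 (SE 0.31, limma adjusted p = 0.321), and Parp14 had 1.05 (SE 0.45, limma adjusted p = 0.349), with Het 3 lowest of the Het arrays in both. Without the arrays numbered 3, 15 of the 44 were called higher and 1 lower, beside 4.38% and 4.19%, and 1 passed the stricter rule. MHC class I and antigen processing, 15 genes partly under the same control, had a median of 0.48 and 0.86 without number 3, with 0 called in limma and 1 at an unadjusted p under 0.05 with Het higher, beside 7.25%. The MHC list's median with all arrays was 0.64 for Het minus WT and 0.16 for Het minus KO.

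Of these 44 genes, 27 had Het above both other genotypes, and the promoters of 3 of the 44 are shown, with Isg15 outside the 27. Capitals mark the core of the interferon-stimulated response element, GAAANNGAAA or its complement TTTCNNTTTC, and overlapping matches run on. Sequences are from RefSeq on GRCm38.p6 and hold the 250 bases before the start of the gene, written 5′ to 3′ on the strand of the gene. Bst2 is at chr8:71537473-71537722, minus strand, Isg15 at chr4:156200819-156201068, minus strand, and Stat2 at chr10:128270248-128270497, plus strand, the latter pair picked after their values were seen.
Bst2: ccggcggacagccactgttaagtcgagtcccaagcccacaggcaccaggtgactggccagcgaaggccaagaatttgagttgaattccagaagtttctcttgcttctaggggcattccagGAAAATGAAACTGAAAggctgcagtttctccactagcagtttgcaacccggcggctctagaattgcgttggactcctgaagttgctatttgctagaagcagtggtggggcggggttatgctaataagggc
Isg15: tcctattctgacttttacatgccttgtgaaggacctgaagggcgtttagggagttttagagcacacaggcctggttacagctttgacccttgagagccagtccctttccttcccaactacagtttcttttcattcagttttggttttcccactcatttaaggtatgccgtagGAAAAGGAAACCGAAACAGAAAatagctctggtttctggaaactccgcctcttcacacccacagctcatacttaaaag
Stat2: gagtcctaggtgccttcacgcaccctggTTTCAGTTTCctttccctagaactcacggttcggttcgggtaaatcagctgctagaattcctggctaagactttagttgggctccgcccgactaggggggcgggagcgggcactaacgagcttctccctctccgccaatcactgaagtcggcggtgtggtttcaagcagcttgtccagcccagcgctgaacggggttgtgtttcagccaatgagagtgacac

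The core was found in 16 of the 31 tested interferon genes whose promoters were read (51.6%) and in 3.46% of all 27025 genes of the RefSeq promoter table. Interferon genes on a chromosome set aside here were not read, whereas the count over all genes includes that chromosome. The Isg15 promoter holds 3 overlapping matches, Bst2 has 2 and Stat2 has 1. The median Het difference was 0.52 over the 16 genes with a match and 0.58 over the 15 without. At Isg15 the WT arrays read 5.24, 3.68, 4.84 and 4.91, the Het arrays 6.56, 4.41, 5.98 and 6.15 and the KO arrays 5.61, 5.57, 6.22 and 6.11, so Het 2 was highest, Het 3 lay among the WT arrays and the KO mean was slightly above the Het mean. Stat2 averaged 2.66 in Het, 1.94 in WT and 2.08 in KO.

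**Figure D4:**
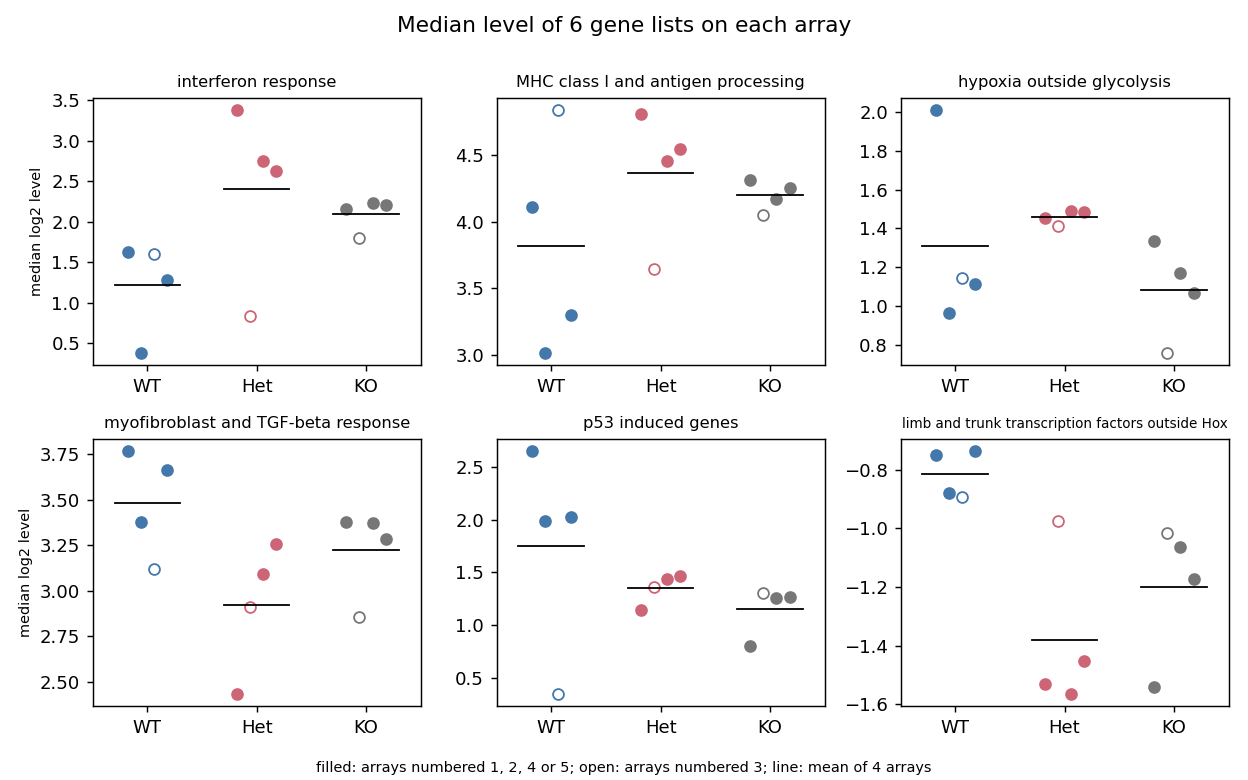
Median log2 level of 6 gene lists on each array (WT blue, Het red, KO grey; open circles are the arrays numbered 3; lines are means of 4 arrays). For the interferon list Het 2, Het 4 and Het 5 lie at 2.63 to 3.38 and Het 3 at 0.83; in the p53 list WT 3 lies at 0.35.

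Genes of the hypoxia response and of glycolysis had 1 called member between them. Of 20 tested hypoxia genes outside glycolysis, 12 had the Het mean above both others and 3 below both, beside 38.7% and 26.3% of all tested features. Their median Het difference was 0.35 (0.11 without scaling). Stc2, stanniocalcin, was the called member: the WT arrays read 0.24, -0.17, -0.30 and 0.09, the Het arrays 0.55, -0.09, 0.81 and 0.75 and the KO arrays -1.51, -2.09, -1.33 and -1.45. Het 3 was inside the WT range and KO lay far below both, and the Het difference was 1.32 (SE 0.20, limma adjusted p = 0.0208). Ndrg1 and Bnip3, targets of the hypoxia-inducible factor, had 0.94 (adjusted p = 0.117) and 0.92 (adjusted p = 0.132). Of 25 glycolysis and lactate genes, 16 had the Het mean above both and 3 below both, beside 38.7% and 26.3% of all tested features. None of the 25 was called in limma, and 6 had an unadjusted p under 0.05 with Het higher against 1 with Het lower, beside 7.25% and 5.67%. Their median was 0.27, 0.28 without the arrays numbered 3 and 0.02 without scaling. In the fit without the arrays numbered 3, 6 of the 25 were called higher and 2 lower, beside 4.38% and 4.19% of all tested features. Slc16a1, the lactate transporter MCT1, came nearest: the WT arrays read 2.32, 2.92, 2.44 and 2.46, the Het arrays 3.29, 3.16, 3.36 and 3.32 and the KO arrays 2.72, 2.77, 2.94 and 2.72. The 4 Het arrays exceeded the other 8, with a Het difference of 0.62 (SE 0.13, limma adjusted p = 0.0591). Pdk1, which holds back pyruvate dehydrogenase, had 0.80 (SE 0.17, limma adjusted p = 0.066). Oxidative phosphorylation (46 genes), the TCA cycle (29) and NAD metabolism (15) had no called member, with medians of 0.10, 0.04 and 0.04 and 1, 0 and 1 genes at an unadjusted p under 0.05, each higher in Het, beside 7.25%.

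Genes induced by p53, a SIRT1 substrate, showed no called member among 34, with 0 higher and 3 lower at an unadjusted p under 0.05 in limma, beside 7.25% and 5.67% of all tested features, and a median of -0.20. WT spread most: the list's median level was at 2.65, 1.98, 0.35 and 2.02 on the WT arrays and 1.15, 1.36, 1.44 and 1.47 on the Het arrays, and KO lay at 0.80 to 1.30. WT 3 stood far below the other WT arrays. In the fit without the arrays numbered 3, 0 of the 34 were called higher and 4 lower, beside 4.38% and 4.19% of all tested features. The median was then -0.28, and 1 of the 34 passed the stricter rule, lower in Het. NRF2 and glutathione genes (33) had 20 Het means above both and 10 below both, beside 38.7% and 26.3% of all tested features. This list had 10 higher and 3 lower at an unadjusted p under 0.05 (beside 7.25% and 5.67%), no call in limma with all arrays and a median of 0.19 (-0.06 without scaling). In the fit without the arrays numbered 3, 5 of the 33 were called higher and 2 lower, beside 4.38% and 4.19%. Gstm5, a glutathione transferase, and Nfe2l2, which encodes NRF2 itself, were at 0.92 and 0.61 with an adjusted p of 0.112 each, though other Nfe2l2 probes ran from -0.68 to 0.51. Of 20 adipogenic and lipid handling genes Prdm16 was the called member, and Cebpa, an adipogenic factor, had 2.72 (SE 0.58, limma adjusted p = 0.0656), while a second probe passed, at 1.14 (limma adjusted p = 0.0221). Of the cell cycle lists, G1/S and DNA replication (45) had a median of 0.15 and G2/M and mitosis (35) 0.01, beside 0.05 over all tested features. Neither had a call in limma with all arrays. At an unadjusted p under 0.05, G1/S had 8 higher and 1 lower and G2/M 0 higher and 3 lower, beside 7.25% and 5.67% of all tested features. Without scaling the medians of the NAD, TCA cycle, oxidative phosphorylation, adipogenic, lysosomal and both cell cycle lists turned negative, at -0.23 to -0.05, and with quantile scaling the TCA cycle list turned to -0.05 and the G2/M list to -0.06.

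**Figure D5:**
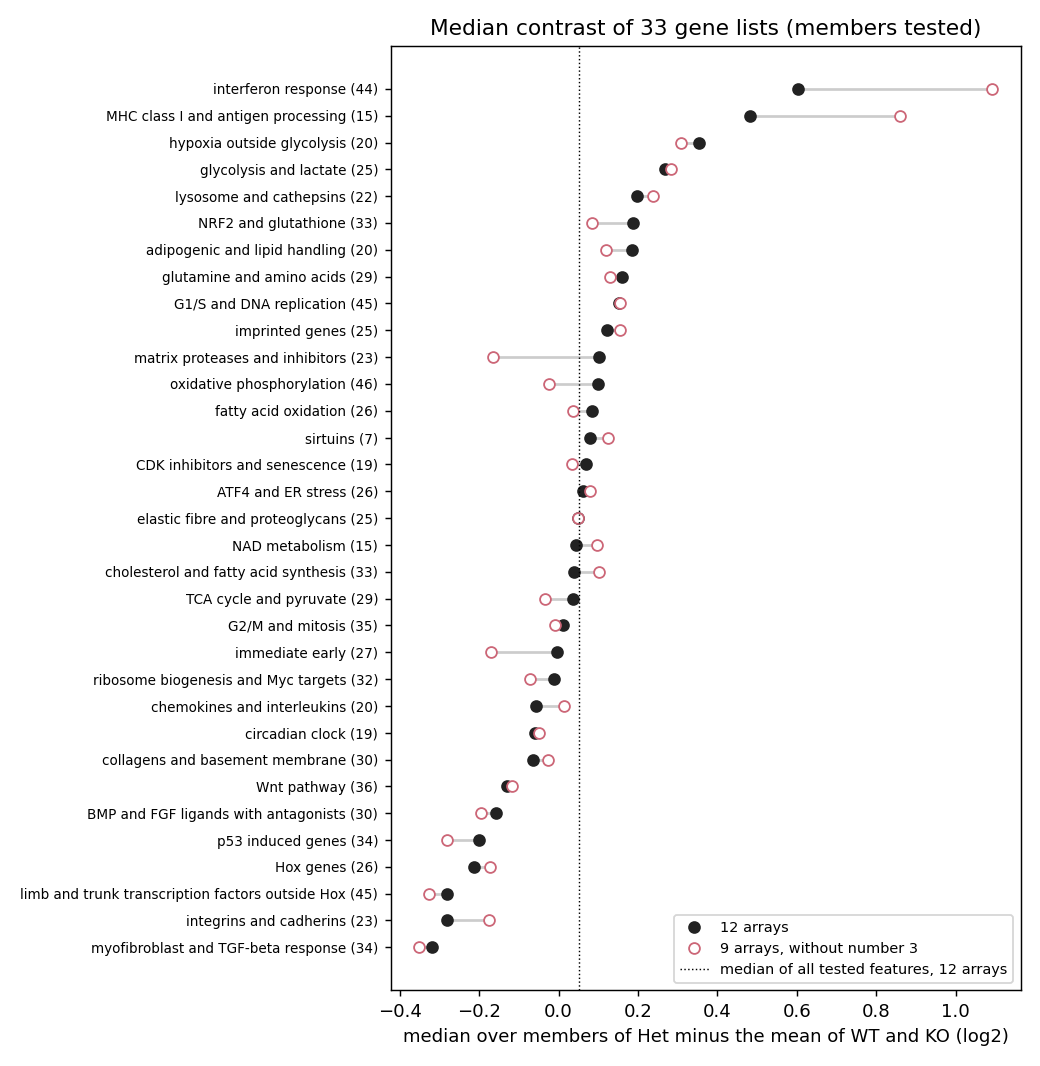
Median Het difference (log2) over the tested members of 33 gene lists, with the number tested in brackets, for all 12 arrays (filled) and without the arrays numbered 3 (open); the dotted line is the median of all tested features, 0.05. The interferon list lies highest, at 0.60 and 1.09, and the myofibroblast list lowest, at -0.32 and -0.35.

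Markers of other cell types were compared between the groups. The 8 fibroblast markers were well above background on every array, with a summed linear level of 476.8 to 632.9 in Het, 387.7 to 478.0 in WT and 426.9 to 497.6 in KO. This sum mainly follows its brightest members, Col1a2, Col1a1 and Vim, and hides differences at others. Thy1 was at 3.104 to 4.764 in WT, 2.576 to 3.062 in Het and 0.132 to 0.794 in KO. Dcn averaged 3.06 in Het, 1.83 in WT and -0.15 in KO. All 8 had a Het difference above 0, and their median was 0.28 for Het minus WT and 0.87 for Het minus KO. Pecam1 and Tie1 of the 5 endothelial markers were well above background on no array, and that list summed to 0.0575 to 0.0860 in Het, 0.193 to 0.468 in WT and 0.0679 to 0.338 in KO. Kdr, the 1 member tested, was at -4.57 to -3.80 in Het, -2.49 to -1.15 in WT and -4.35 to -1.63 in KO. Ptprc of the macrophage markers was well above background on no array, and the summed level of the 5 macrophage markers was 0.180 to 0.227 in Het, 0.193 to 0.429 in WT and 0.240 to 0.274 in KO. Of the 5 mesothelial markers, Wt1 and Lrrn4 were well above background on no array, and Krt19 was at -1.81 to 1.63 in Het, 1.40 to 4.13 in WT and 0.78 to 2.09 in KO. Msln overlapped between the groups, at 2.59 to 4.31 in Het, -1.10 to 5.58 in WT and 2.75 to 4.95 in KO. Upk3b was well above background on 4 WT, 0 Het and 2 KO arrays. The summed level of the 5 mesothelial markers was 9.13 to 20.6 in Het, 3.17 to 65.4 in WT and 11.03 to 34.34 in KO. The 5 epithelial markers summed to 0.299 to 2.31 in Het, 0.121 to 0.634 in WT and 1.32 to 1.51 in KO. Of the 4 tested, 3 had a Het difference above 0 and 1 below. Krt8 was at -4.72 to -2.01 in Het, -7.61 to -5.16 in WT and -5.27 to -4.59 in KO. Its Het difference was 2.68 (SE 0.54, limma adjusted p = 0.0541), and a second probe passed, at 3.08 (limma adjusted p = 0.0281). Krt8 was well above background on 1 WT, 4 Het and 4 KO arrays. The 4 adipocyte markers summed to 2.75 on Het 3 and 7.64 on KO 3, against 0.328 to 1.13 on the other arrays. Their part in the differences above was not tested.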

How the data were processed

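Each of the 12 arrays held RNA of 1 sample in 1 colour, and the authors deposited scanner output made with Agilent Feature Extraction 9.5, per the submitters' processing notes. The deposited processed signal is an intensity, background-subtracted per the file headers; the series table deposited by the authors holds the same values. Here log2 intensity minus the 75th percentile of each array was used, without control spots, with 1 probe per gene name (highest mean). Names came from a RefSeq table for 86 of the 104 called features. Limma 3.58.1 in R 4.3.3 gave the Het difference and the stricter rule from 1 fit of all 12 arrays, with Benjamini-Hochberg adjustment over 16844 features, and was tested on simulated data. The number of arrays limits the precision.

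Named are the 14 called features per direction with the largest lesser difference (Het minus WT or Het minus KO), up to 3 members per list with the lowest p, called list members and sirtuins. Genes said to be picked after their values were seen, Isg15 and Stat2 among them, lie outside that rule. The members and lists were chosen with earlier results of these data known. Same-numbered arrays of different genotypes had correlated deviations above 0.1 in 5 of 10 pairs, so the numbers were not taken to pair the samples. Slides were read from the barcodes in the names of the scanner files. Alternatives covered scaling, background, filter, probe choice, slide, replicate number and arrays left out. Some items within the counts are not reported here.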

Additional observations from a re-analysis of the deposited data

Results flagged for a closer look

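In 16 of 102 groups of 4 arrays checked, over 34 genes, 1 array lay apart from the other 3 by Dixon's criterion; chance gives about 1 in 20 groups. Of these, 14 fell on arrays numbered 3. Het 3 lay apart toward the other genotypes at Tenm3 (-0.75), Odz3 (-2.87), Cnn1 (1.35), Sorcs2 (-1.74) and Mfap5 (-2.12). KO 3 lay apart at S100b (-2.06), Cyp4f14 (-6.16), Pgap4 (-2.66), Shox2 (-3.46), Amigo2 (-2.85), Zbtb8b (-5.43), Ctsc (-1.06) and Jag1 (-0.64). WT 3 lay apart at Cnn1 (2.08), where the next WT array read 4.75. WT 1 lay apart at Cxcl14 (-4.43). KO 2 lay apart at Sirt6 (-3.35), by a small margin on the log2 scale.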

How the results depend on the processing

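The 104 calls of the Het difference became 56 with normexp background, 12 with no filter on dim probes, 26 with slide as a block, 43 with KO 4 and KO 5 averaged, 2987 with array weights, 1443 without the arrays numbered 3, and 2 without slide 4, an alternative chosen after seeing the data. Leaving out 1 array gave 2 to 568. A replicate block over all numbers gave 102 calls, 41 shared with the 104, and with a block of numbers 2, 3 and 5 alone 3 were called; 3 of 12 arrays correlated best with their own number. The stricter rule passed 0 features with all arrays, 1 without scaling, 1 with normexp, 1 with probes above background on every array, 1 with the mean of all probes, 574 with array weights and 279 without number 3; leaving out 1 array gave 0 to 35. The second Sirt1 probe moved from 0.07 to -0.18 without scaling and ranged from -0.082 to 0.19 with 1 array left out. None of the 28 highest-ranked genes reversed under any alternative. The cause of these shifts was not tested. Without scaling 21 of 39 list medians kept their sign, as did 35 with quantile scaling and 39 with normexp. Probes that were not well above background in a group carry only a bound there.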
